A study of Mus musculus with 8 samples.

Results

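The insulin-like growth factor binding proteins (IGFBPs) were followed in 8 RNA libraries made from frozen mouse liver, taken at postnatal day 90 from a mixed C57/B6 and 129 strain. In 4 libraries the mice carried Arid1a Fl/Fl alleles (WT), and in 4 they carried the same floxed alleles together with Alb-cre (KO). Alb-cre drives Cre recombinase from the albumin promoter, so recombination is directed to hepatocytes. Liver cells in which that promoter was never active keep both floxed alleles. A group with Alb-cre alone was not analysed here. The members were taken by symbol, Igfbp1 to Igfbp7, which gave 7 of the 35638 genes in the table. Each matched 1 row. No measured value entered that choice, but the family was proposed with the WT and KO values known, so its values are given as a description, with no p-value, and the number of members called by the fit over all genes is stated beside its background. By textbook knowledge Igfbp1, Igfbp2 and Igfbp4 were classed as hepatocyte-made, and Igfbp3, Igfbp5, Igfbp6 and Igfbp7 as products of non-parenchymal cells, the endothelial, stellate, macrophage and other cells that share the liver with hepatocytes. Whole tissue was sequenced, so the classes rest on that background and not on these libraries.

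The liver is the main source of circulating IGF-I, which growth hormone induces through its receptor and STAT5 and which acts on other tissues through the type 1 IGF receptor. IGFBPs hold IGFs in the blood and around cells: IGFBP-3 and IGFBP-5 bind IGF together with the acid-labile subunit in a long-lived complex, while IGFBP-1, IGFBP-2 and IGFBP-4 form smaller complexes that can leave the circulation. Igfbp1 is known as a fast insulin-repressed and FOXO1-driven gene of hepatocytes, and IGFBP-7 is a relative with low affinity for IGFs that is laid down in vascular basement membrane.

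The libraries held an estimated 12400000 to 15200000 reads, recovered from the steps between low values. FPKM values are fragments scaled to gene length and to library size, so levels of different genes can be set side by side. Arid1a, a SWI/SNF chromatin remodeller gene and the target of the deletion, ran from 4.0 to 8.38 FPKM (WT) and from 2.59 to 3.46 FPKM (KO) without overlap (limma adjusted p = 0.316). Its value covers the whole gene and all liver cells, also those that Alb-cre does not reach. The source of the level left in KO was not tested. The hepatocyte markers Alb and Apoa2 were abundant in all 8 libraries, and the summed hepatocyte list overlapped between the groups (36365 to 50369 FPKM in WT and 39170 to 58831 FPKM in KO). WT 4 stood apart from the other WT libraries in clock and fasting genes, and KO 2 from the other KO libraries in lipid synthesis genes, so results that rest on either are also given without it. The labels do not tie each replicate to an animal of its own, so p-values measure the spread between these libraries, which may be technical.

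In WT liver the family fell into 2 tiers. Igfbp4 was highest at 274 ± 33.0 FPKM, followed by Igfbp2 at 139 ± 28.7 FPKM and Igfbp1 at 103 ± 61.9 FPKM (SD, n = 4 each). The non-parenchymal members lay far below, with Igfbp7 at 2.38 ± 0.888 FPKM, Igfbp5 at 1.34 ± 0.868 FPKM, Igfbp3 at 0.122 ± 0.0805 FPKM and Igfbp6 listed at 0 in the 4 WT libraries. The mean of Igfbp1 was 43.3 times that of Igfbp7, and no WT library had a non-parenchymal member above a hepatocyte-made one. Neighbours in this order whose ranges overlapped in WT were Igfbp2 with Igfbp1 and Igfbp7 with Igfbp5. In KO the order of the means was the same. There Igfbp4 and Igfbp2 overlapped, as did Igfbp5 and Igfbp3, while Igfbp2 now lay apart from Igfbp1 and Igfbp7 from Igfbp5.

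Across the fit of 11266 genes with a mean of at least 1 FPKM, 0.763% were called different between KO and WT, 0.408% higher and 0.355% lower (limma, Benjamini-Hochberg adjusted p under 0.05). Of the 7 members 5 reached that minimum, and 1 of them, Igfbp7, was called, in the direction of higher in KO. Igfbp3 and Igfbp6 lay under the minimum and were not tested. Every KO library lay above every WT library for Igfbp2 and Igfbp7, and also for the untested Igfbp3. Of the tested genes 3.05% showed this pattern. The opposite pattern, shown by 3.18% of tested genes, was found in 0 members. These shares leave out genes under the minimum, such as Igfbp3. Since the family was proposed with this contrast known, nothing is read from these counts.

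**Figure D1:**
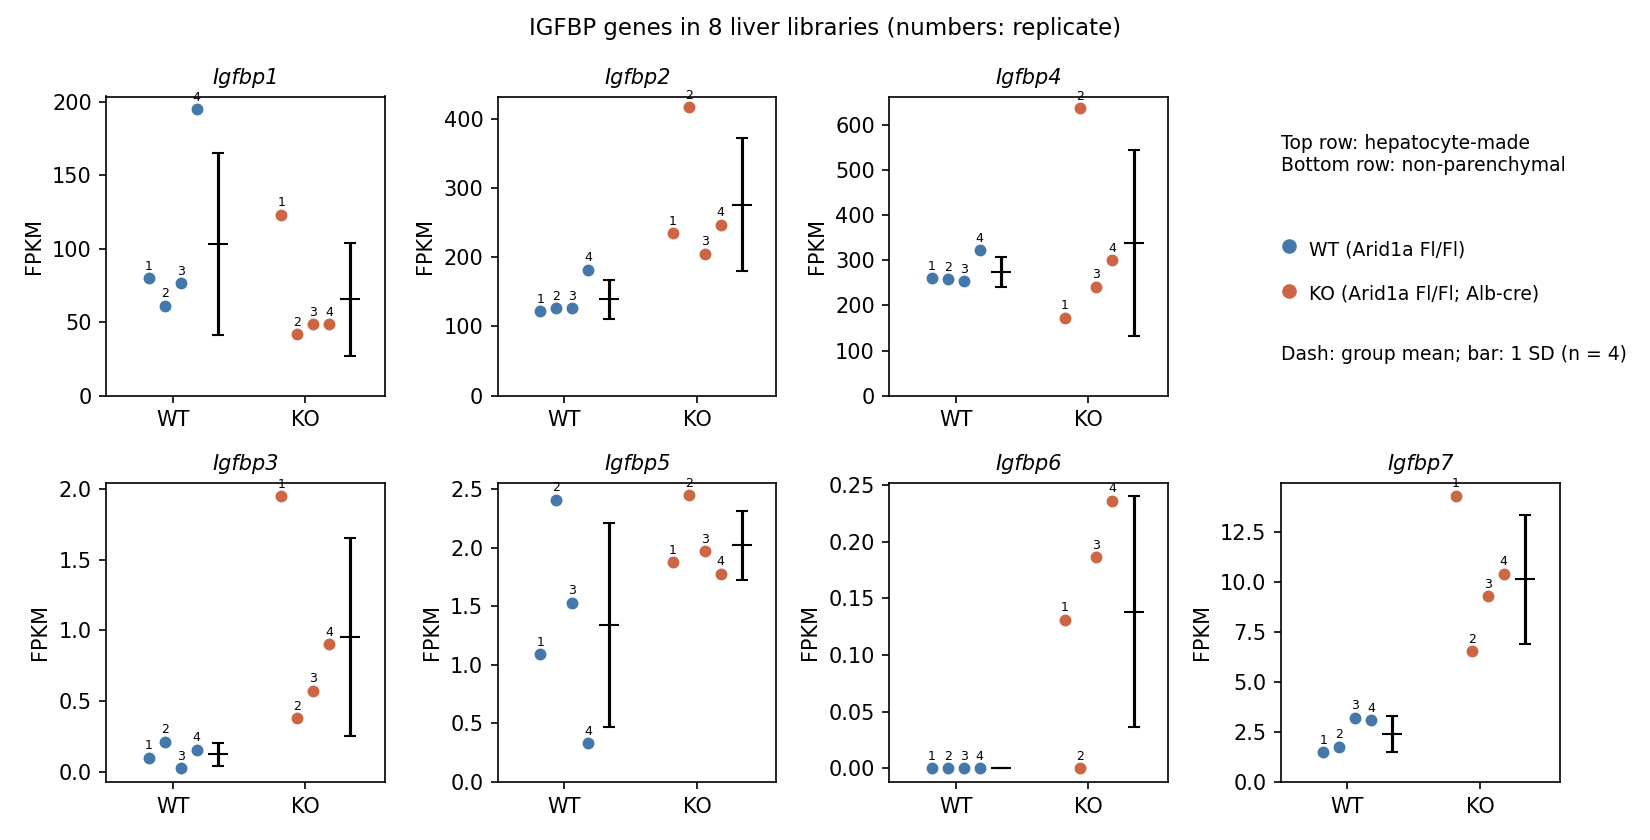
Each panel plots the FPKM of 1 IGFBP gene (y axis, linear) in the WT and KO groups (x axis), with 1 point per library numbered by replicate and the group mean with 1 SD beside them. Igfbp2, Igfbp3 and Igfbp7 have every KO point above every WT point, while the WT 4 point of Igfbp1 (195 FPKM) and the KO 2 point of Igfbp4 (638 FPKM) stand far above the rest of their groups.

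Igfbp2, a major circulating IGFBP that insulin and growth hormone are known to lower, was 1.98 times as high in KO by the means. It measured 122, 126, 126 and 182 FPKM across WT 1 to 4 and 235, 417, 205 and 247 FPKM across KO 1 to 4. The lowest KO library thus lay above the highest WT library, WT 4, and the first 3 WT libraries were nearly equal. The log2 change of FPKM + 1 was 0.95 ± 0.25 (SE). KO 2 was the highest library, and without it the KO mean was 229 ± 21.7 FPKM (SD, n = 3) against 276 ± 95.5 FPKM with it, which left the ratio at 1.65. The gene lies on chromosome 1 at 72824503 to 72852474 on the plus strand (GRCm38), with 3 annotated transcripts.

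Igfbp4, an inhibitory IGFBP that the protease PAPP-A cleaves, showed no common shift between the groups. It measured 260, 258, 254 and 323 FPKM across WT 1 to 4 and 173, 638, 242 and 301 FPKM across KO 1 to 4. KO 1 lay below every WT library and KO 2 far above the highest one, so the KO spread covered the whole WT range. The log2 change was 0.13 ± 0.35 (SE), and it turned to -0.23 without KO 2, where the KO mean was 238 ± 64.2 FPKM (SD, n = 3). The gene lies on chromosome 11 at 99041244 to 99054392 on the plus strand, with 6 annotated transcripts.

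Igfbp1 varied more within the groups than between them. It measured 80.0, 61.1, 76.7 and 195 FPKM across WT 1 to 4 and 123, 41.7, 48.6 and 48.5 FPKM across KO 1 to 4. A single library stood high in each group, WT 4 and KO 1, and the other 3 KO libraries lay below the lowest WT library. The WT mean was 103 ± 61.9 FPKM and the KO mean 65.5 ± 38.6 FPKM (SD, n = 4), with a log2 change of -0.64 ± 0.42 (SE). Without WT 4 the log2 change was -0.28, without KO 1 it was -0.99, and without WT 4 and KO 2 together it was -0.12. The coefficient of variation was 59.9% in WT and 59.0% in KO, against 20.6% and 34.6% for Igfbp2. The gene lies on chromosome 11 at 7197782 to 7202546 on the plus strand, with 1 annotated transcript.

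The genes that feeding and FOXO1 are known to control gave context for Igfbp1. WT 4, the library with the highest Igfbp1, also had the highest WT values of G6pc (184 FPKM), the glucose-6-phosphatase gene, and of Cyp4a10 (317 FPKM), a PPAR-alpha target, while the clock output gene Dbp measured 0.569 FPKM there against 22.6 to 49.3 FPKM in the other WT libraries. Its summed level of 9 insulin-induced genes of lipid synthesis and glucose use was 590 FPKM, against 1595 to 2029 FPKM in WT 1 to WT 3. KO 1, the other library with high Igfbp1, had the highest sum of those genes (4223 FPKM). Its Dbp (20.8 FPKM) was the lowest of the KO libraries. Its G6pc was at 48.0 FPKM, and every KO library lay below the lowest WT value of G6pc (88.7 FPKM). The lipogenic sum was thus low in 1 of the libraries with high Igfbp1 and high in the other. KO 2 had the lowest sum of the lipogenic list (540 FPKM), the lowest G6pc (35.1 FPKM) and the lowest Igfbp1 of all. The part of feeding state or sampling time in these values was not tested. Of 14 tested FOXO1 and fasting genes 0 were called (median log2 change -0.03, the same as that of all tested genes). G6pc had the smallest p among them, with a WT mean of 133 ± 39.1 FPKM and a KO mean of 54.0 ± 15.8 FPKM (n = 4 each, ± SD; log2 change -1.29; limma adjusted p = 0.0892). Pck1, the gene of the other gluconeogenic control enzyme, was at 623 ± 222 and 624 ± 126 FPKM. Of the 9 insulin-induced genes 0 were called as well (median 0.28). Among 11 tested clock genes 0 were called (median 0.15), with the smallest p for Hlf (14.1 ± 1.38 and 7.96 ± 2.85 FPKM, limma adjusted p = 0.206). Since 0.763% of all tested genes were called, nothing is read from 0 calls in lists this short.

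**Figure D2:**
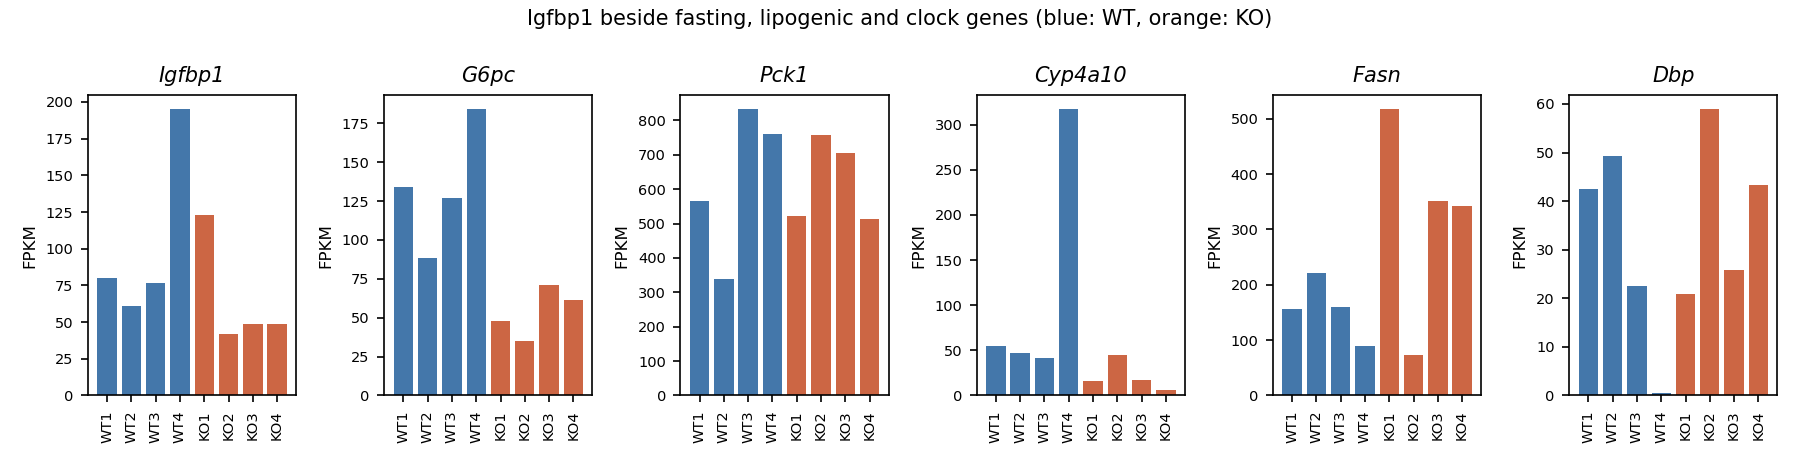
Bars give FPKM (y axis, linear from 0) of Igfbp1 and of 5 fasting, lipogenic or clock genes in each library (x axis, WT in blue, KO in orange). WT 4, with Igfbp1 at 195 FPKM, combines high Cyp4a10 (317 FPKM) with Dbp at 0.569 FPKM, whereas KO 1, with Igfbp1 at 123 FPKM, has the highest Fasn (517 FPKM).

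The start regions of 3 members are shown because these genes differ in their spread, from the variable Igfbp1 to Igfbp2 and Igfbp7, whose groups did not overlap. Each run is the 250 bases before the RefSeq start on GRCm38.p6, read 5′ to 3′ along the gene's own strand: Igfbp1 at chr11:7197537-7197786 (plus), Igfbp2 at chr1:72824230-72824479 (plus) and Igfbp7 at chr5:77408046-77408295 (minus). Capitals mark matches, on either strand, to the insulin response core CAAAACA, the forkhead motif GTAAACA, the TATA box TATAAA and the GC box GGGCGG.
Igfbp1: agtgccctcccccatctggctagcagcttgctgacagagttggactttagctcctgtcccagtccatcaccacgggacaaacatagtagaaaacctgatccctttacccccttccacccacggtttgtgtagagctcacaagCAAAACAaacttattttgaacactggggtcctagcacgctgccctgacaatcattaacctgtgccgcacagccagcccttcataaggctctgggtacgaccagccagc
Igfbp2: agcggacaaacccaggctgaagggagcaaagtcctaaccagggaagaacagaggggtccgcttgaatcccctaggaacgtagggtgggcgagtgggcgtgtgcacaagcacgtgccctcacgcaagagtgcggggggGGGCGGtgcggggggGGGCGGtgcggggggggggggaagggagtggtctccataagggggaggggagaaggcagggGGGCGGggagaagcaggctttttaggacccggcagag
Igfbp7: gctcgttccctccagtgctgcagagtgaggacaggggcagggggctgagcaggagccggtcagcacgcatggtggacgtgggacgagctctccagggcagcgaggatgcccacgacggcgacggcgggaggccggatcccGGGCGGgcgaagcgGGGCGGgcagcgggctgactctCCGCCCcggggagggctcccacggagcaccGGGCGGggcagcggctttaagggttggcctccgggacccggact
Igfbp1 held CAAAACA from 108 bases before the start, on the strand shown. These letters occurred on either strand in 5.56% of 32851 mouse start regions of the same length, and in 0 of the other 6 members. Igfbp2 held 3 GC boxes and Igfbp7 held 4, and 32.7% of all start regions held at least 1. The forkhead motif (3.17% of all regions) was in 0 of the 7 members. The TATA box letters (12.4%) were in Igfbp4, from 28 bases before the start, and in Igfbp6, from 148 bases before it and on the other strand. The GC content was 53.2% for Igfbp1, 67.2% for Igfbp2 and 74.0% for Igfbp7, against a median of 52.4% over all regions. A match is a string of letters and not a measured binding site.

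Igfbp2 took a larger part of the family's summed level in KO. The summed FPKM of the family averaged 520 ± 123 for WT and 693 ± 278 for KO (SD, n = 4), and these overlapped between the groups. Igfbp2 made up 26.3, 28.0, 27.4 and 25.9% of the sum across WT 1 to 4 and 42.8, 37.7, 40.4 and 40.5% across KO 1 to 4. The groups were far apart on this scale, at 26.9 ± 0.95% and 40.4 ± 2.1%, and the spread within each was small even though WT 4 and KO 2 had the largest sums. The difference was 13.5 percentage points and stayed between 12.7 and 14.4 points when each library was left out in turn, a measure added after the values were seen. Igfbp1 held 18.8 ± 6.17% in WT and 10.9 ± 8.05% in KO, and Igfbp4 held 53.6 ± 5.21% and 46.5 ± 11%, with overlap in both. The share of Igfbp4 was lowest in KO 1 (31.4%), where that of Igfbp1 was the highest of the KO libraries (22.4%). Shares within a pool are tied together, so a higher share of Igfbp2 lowers those of the others.

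The hepatocyte-made members together held 99.23 ± 0.268% of the WT sum and 97.82 ± 1.02% of the KO sum (SD, n = 4). The groups overlapped, since KO 2 was at 99.15%, and the other 3 KO libraries, at 96.67, 97.63 and 97.82%, lay below every WT library. The difference of -1.41 percentage points turned to 5.63 when Igfbp4, which other liver cells may also make, was counted as non-parenchymal, so its direction rests on that class. The summed level of the 4 non-parenchymal members did not overlap, at 2.68, 4.38, 4.76 and 3.57 FPKM across WT 1 to 4 and 18.3, 9.36, 12 and 13.3 FPKM across KO 1 to 4. Most of that sum in KO was Igfbp7.

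**Figure D3:**
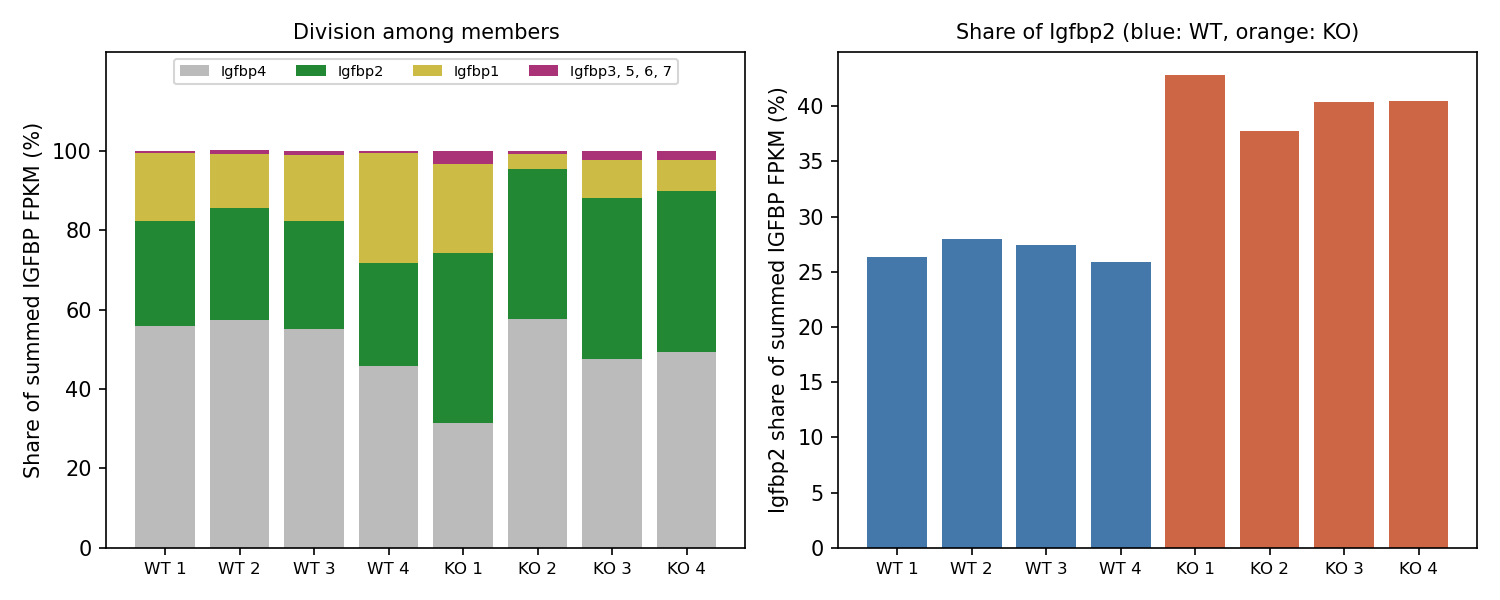
The left panel stacks each member's percentage of the summed IGFBP FPKM (y axis) for every library (x axis), with Igfbp3, Igfbp5, Igfbp6 and Igfbp7 joined, and the right panel shows the percentage of Igfbp2 alone (WT blue, KO orange). Igfbp2 lies between 25.9 and 28.0% in the WT libraries and between 37.7 and 42.8% in the KO libraries.

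Igfbp7, the vascular member of the family, differed most by ratio among the tested members. It measured 1.49, 1.76, 3.21 and 3.09 FPKM across WT 1 to 4 and 14.3, 6.53, 9.29 and 10.4 FPKM across KO 1 to 4. The lowest KO library, KO 2, was still above the highest WT library. The means were 2.38 ± 0.888 and 10.1 ± 3.24 FPKM (SD, n = 4 each), a ratio of 4.25 and a log2 change of 1.71 ± 0.27 (SE). When each library was left out in turn, the log2 change ran from 1.54 (without KO 1) to 1.88 (without KO 2). The call of Igfbp7 in the fit over all genes was kept in 3 of these 8 fits and lost in 5. Over all 19 alternatives it was kept in 12 and lost in 7. The gene lies on chromosome 5 at 77349240 to 77408041 on the minus strand. Its exons share 85 bases with those of Polr2b on the other strand, an RNA polymerase II subunit gene that was at 3.56 to 6.24 FPKM in the 8 libraries, and the sources used here do not say whether strand was used in counting. The antisense gene Gm34648, which shares 0 exonic bases with Igfbp7, was at 0.264 FPKM in KO 1 and 1.63 FPKM in KO 3 and at 0 elsewhere.

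Igfbp3, the carrier of most circulating IGF, is made in rodent liver mainly by sinusoidal cells. It was at trace levels of 0.0989, 0.212, 0.0236 and 0.155 FPKM across WT 1 to 4 and at 1.95, 0.380, 0.573 and 0.904 FPKM across KO 1 to 4. By the estimated depth these values stand for about 3.9, 9.0, 1.0 and 6.0 reads in the WT libraries and 83.5, 18.1, 24.6 and 41.9 reads in the KO libraries. KO 1 was the highest and KO 2 the lowest of the KO libraries, as for Igfbp7. The ratio of the means was 7.77, and 5.06 without KO 1, on few reads. The gene lies on chromosome 11 at 7206086 to 7213923 on the minus strand.

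Igfbp5, a matrix-binding IGFBP of stellate cells and fibroblasts, measured 1.09, 2.41, 1.53 and 0.333 FPKM across WT 1 to 4 and 1.88, 2.45, 1.97 and 1.78 FPKM across KO 1 to 4. The groups overlapped, since WT 2 lay above 3 of the KO libraries. The log2 change was 0.44 ± 0.27 (SE), and 0.20 without WT 4, the lowest library. Igfbp6, which prefers IGF-II, had a listed value of 0 in KO 2 and every WT library, and of 0.131, 0.186 and 0.236 FPKM in KO 1, KO 3 and KO 4. Those 3 values correspond to about 2.0, 2.8 and 3.9 reads, and a count of 0 allows up to 3 reads, or 0.218 FPKM at the lowest depth, so a difference was not detectable at this depth. Igfbp5 lies on chromosome 1 at 72857932 to 72874884 (minus strand) and Igfbp6 on chromosome 15 at 102144362 to 102149511 (plus strand).

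Markers of non-parenchymal cells lay higher in the KO libraries, as Igfbp7 and Igfbp3 did. The summed level of 14 sinusoidal endothelial markers ran from 4.40 to 11.9 FPKM in WT and from 21.2 to 42.1 FPKM in KO, and 8 of the 14 had every KO library above every WT library, a pattern of 3.05% of all tested genes. All 11 tested ones had a positive change (median log2 change 0.98), and 1 was called, Dnase1l3, a secreted DNase gene of endothelial and myeloid cells (0.611 ± 0.142 and 3.14 ± 1.17 FPKM, limma adjusted p = 0.0452, and 0.00853 to 0.137 over its alternatives). Of 15 stellate cell and fibroblast markers 13 had KO above WT without overlap, with sums of 5.73 to 13.1 FPKM in WT and 22 to 47 FPKM in KO. All 7 tested ones had a positive change (median 1.11), and Col14a1, a fibril-associated collagen gene, was called (0.386 ± 0.138 and 2.21 ± 0.893 FPKM, limma adjusted p = 0.0452, and 0.0371 to 0.132 over its alternatives). When libraries were left out in turn, Dnase1l3 kept its call in 1 of 8 fits and Col14a1 in 1 of the 7 fits that tested it. Macrophage markers ran from 6.56 to 14.7 FPKM in WT and from 20.4 to 153 FPKM in KO, and 10 of 11 had KO above WT without overlap. Of the 10 tested, 0 were called and all 10 had a positive change (median 2.02). Among all tested genes 0.763% were called and 45.5% had a positive change, with a median of -0.03. The minimum of 1 FPKM applied to the mean over the 8 libraries, so markers low in WT were tested only where KO was high. Such markers included Dnase1l3 (WT mean 0.611 FPKM), Col14a1 (0.386 FPKM) and the macrophage marker Adgre1 (0.216 FPKM). The counts of positive changes, the medians and the calls of Dnase1l3 and Col14a1 are thus a description only. The counts without overlap also include untested markers, while the 3.05% covers tested genes.

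Set against these sums, the ratios of Igfbp7 overlapped between the groups, to a different degree for each list. Its ratio to the endothelial sum was 0.338, 0.198, 0.306 and 0.260 across WT 1 to 4 and 0.343, 0.308, 0.221 and 0.328 across KO 1 to 4, with means of 0.276 ± 0.0610 and 0.300 ± 0.0548 (SD, n = 4 each). The ratio to the stellate sum was 0.265 ± 0.0310 in WT and 0.315 ± 0.0325 in KO, and only WT 2 (0.306) reached the KO range (0.293 to 0.363). The ratio to the macrophage sum was 0.230 ± 0.0268 in WT and 0.159 ± 0.115 in KO. There KO 2 (0.320) lay above every WT library, and KO 1, KO 3 and KO 4 (0.162, 0.0607 and 0.0928) lay below every WT library. The ratio of Igfbp3 to the endothelial sum was 0.0154 ± 0.0100 and 0.0267 ± 0.0147. That of Igfbp5 to the stellate sum was 0.189 ± 0.168 and 0.0697 ± 0.0320, also overlapping. In bulk tissue fewer cells of a type and less RNA per cell cannot be told apart, and the same holds for more of either.

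**Figure D4:**
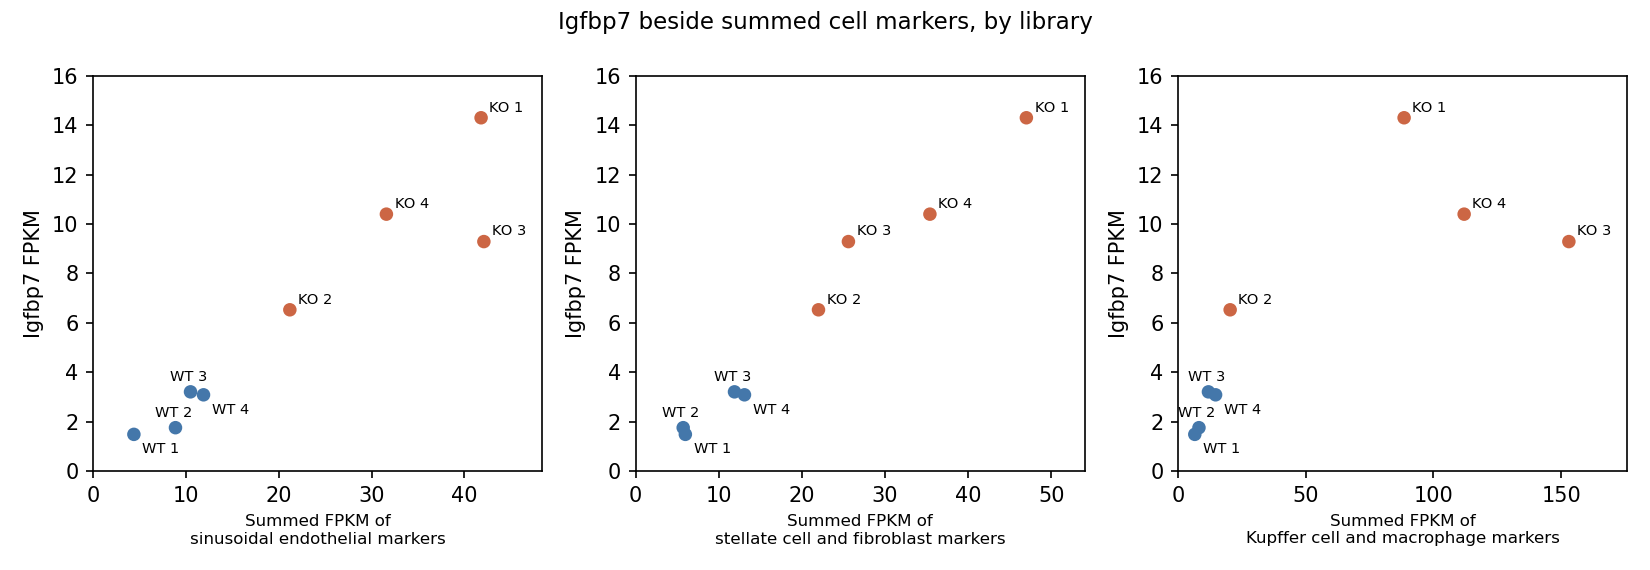
Each point is a library (WT blue, KO orange), placed by the summed FPKM of a marker list (x axis) and the FPKM of Igfbp7 (y axis), both linear from 0, for sinusoidal endothelial, stellate cell and macrophage lists. KO 2 has the lowest Igfbp7 of the KO libraries (6.53 FPKM) and the lowest KO sum in each list (21.2, 22 and 20.4 FPKM).

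Other cell types were near the limit of detection. The cholangiocyte genes Krt19, Krt7, Epcam and Cftr were each at 0 in at least 6 libraries, and the cholangiocyte sum (1.58 to 2.18 FPKM in WT and 2.04 to 8.19 FPKM in KO) was led in KO 1 and KO 3 by Spp1 (6.0 and 6.72 FPKM), which other liver cells also express. Mesothelial markers summed to 0.0403 to 0.103 FPKM in WT and 0.0544 to 0.234 FPKM in KO, with Upk1b and Wt1 at 0 in all 8 libraries. Lymphocyte markers summed to at most 0.119 FPKM (WT) and 0.346 FPKM (KO), and smooth muscle markers to at most 1.14 and 1.43 FPKM. The part of the endothelial, stellate, macrophage and other cells in the levels of the non-parenchymal members was not tested.

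The ligands and partners of the IGFBPs showed no called change. Igf1, the gene of the hormone itself, was at 227, 224, 393 and 197 FPKM across WT 1 to 4 and 195, 234, 201 and 352 FPKM across KO 1 to 4, with WT 3 and KO 4 high in their groups (log2 change -0.07 ± 0.27 SE). Igfals, which encodes the acid-labile subunit, was at 36.6, 40.6, 38.9 and 51.7 FPKM in WT and 21.1, 37.1, 12.3 and 29.4 FPKM in KO (log2 change -0.82 ± 0.31 SE, limma adjusted p = 0.389). Only KO 2 reached the WT range of Igfals. Igf2, the fetal ligand, was under the minimum for testing, listed at 0 in WT and at trace levels of 0.0249 to 0.0551 FPKM in KO. No difference is read from values this low. Among receptors Insr, the insulin receptor gene, was at 12.5 ± 1.39 and 12 ± 2.02 FPKM and Igf2r, the IGF-II clearance receptor gene, at 1.99 ± 0.447 and 2.85 ± 1.21 FPKM (n = 4 each, ± SD; limma adjusted p = 0.963 and 0.754). Igf1r, the signalling receptor gene that hepatocytes hardly express, was at or below 0.0197 FPKM in WT and between 0.0301 and 0.106 FPKM in KO.

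Among 43 genes of the IGF axis written as a list of ligands, receptors, IGFBP proteases, growth hormone signalling and insulin signalling, 42 were in the table and 26 were tested. Of these 0 were called higher and 1 lower (median log2 change -0.11), against 0.408% and 0.355% of all tested genes. The called gene was Prlr, the prolactin receptor gene of the same receptor family as Ghr. It fell from 55.4, 46.8, 50.9 and 67.8 FPKM across WT 1 to 4 to 23.7, 25.7, 13.5 and 24.6 FPKM across KO 1 to 4, without overlap (log2 change -1.32 ± 0.23 SE, limma adjusted p = 0.0392, and 0.0233 to 0.119 over its alternatives). The call was lost without each library except KO 2, with log2 changes of -1.12 to -1.40. Ghr, the growth hormone receptor gene, was at 109 ± 20.2 and 74.9 ± 15.8 FPKM (n = 4 each, ± SD; limma adjusted p = 0.398), with KO 4 inside the WT range. Stat5b, which carries the growth hormone signal, was at 7.84 ± 2.87 and 6.02 ± 0.897 FPKM, and its target Socs2 varied from 0.148 to 6.05 FPKM over the 8 libraries.

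Proteases that release IGF from IGFBPs varied widely in level. Pappa, Pappa2, Adam28 and Mmp7 were listed at 0 in all 8 libraries, and Stc1 and Stc2, inhibitors of PAPP-A, did not exceed trace levels. The liver-made proteases plasminogen (Plg) and prothrombin (F2) were abundant, and F2, with the smallest p of that list, was at 437 ± 48.9 and 507 ± 54.5 FPKM (n = 4 each, ± SD; limma adjusted p = 0.783). In insulin signalling 0 of 12 tested genes were called (median -0.15), against 0.763% of all tested genes. Akt1, a kinase downstream of the insulin and IGF receptors, had the smallest p, at 11.5, 11.3, 13.1 and 12.2 FPKM across WT 1 to 4 and 4.33, 3.35, 8.57 and 8.56 FPKM across KO 1 to 4 (log2 change -0.94 ± 0.27 SE, limma adjusted p = 0.213). Foxo1, the factor through which insulin is known to repress Igfbp1, was at 5.89 ± 1.53 and 6.84 ± 0.841 FPKM. Trib3, a pseudokinase that binds AKT, was under the minimum for testing and was picked after its values were seen, with 0.857 to 2.94 FPKM in WT and 0.0651 to 0.183 FPKM in KO. Of the IGFBP-domain relatives 11 of 13 were in the table and 1 was tested, Cyr61, a YAP target, at 28.5 ± 6.97 and 13.1 ± 5.74 FPKM without overlap (limma adjusted p = 0.255), while Nov was at 0 in all libraries.

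**Figure D5:**
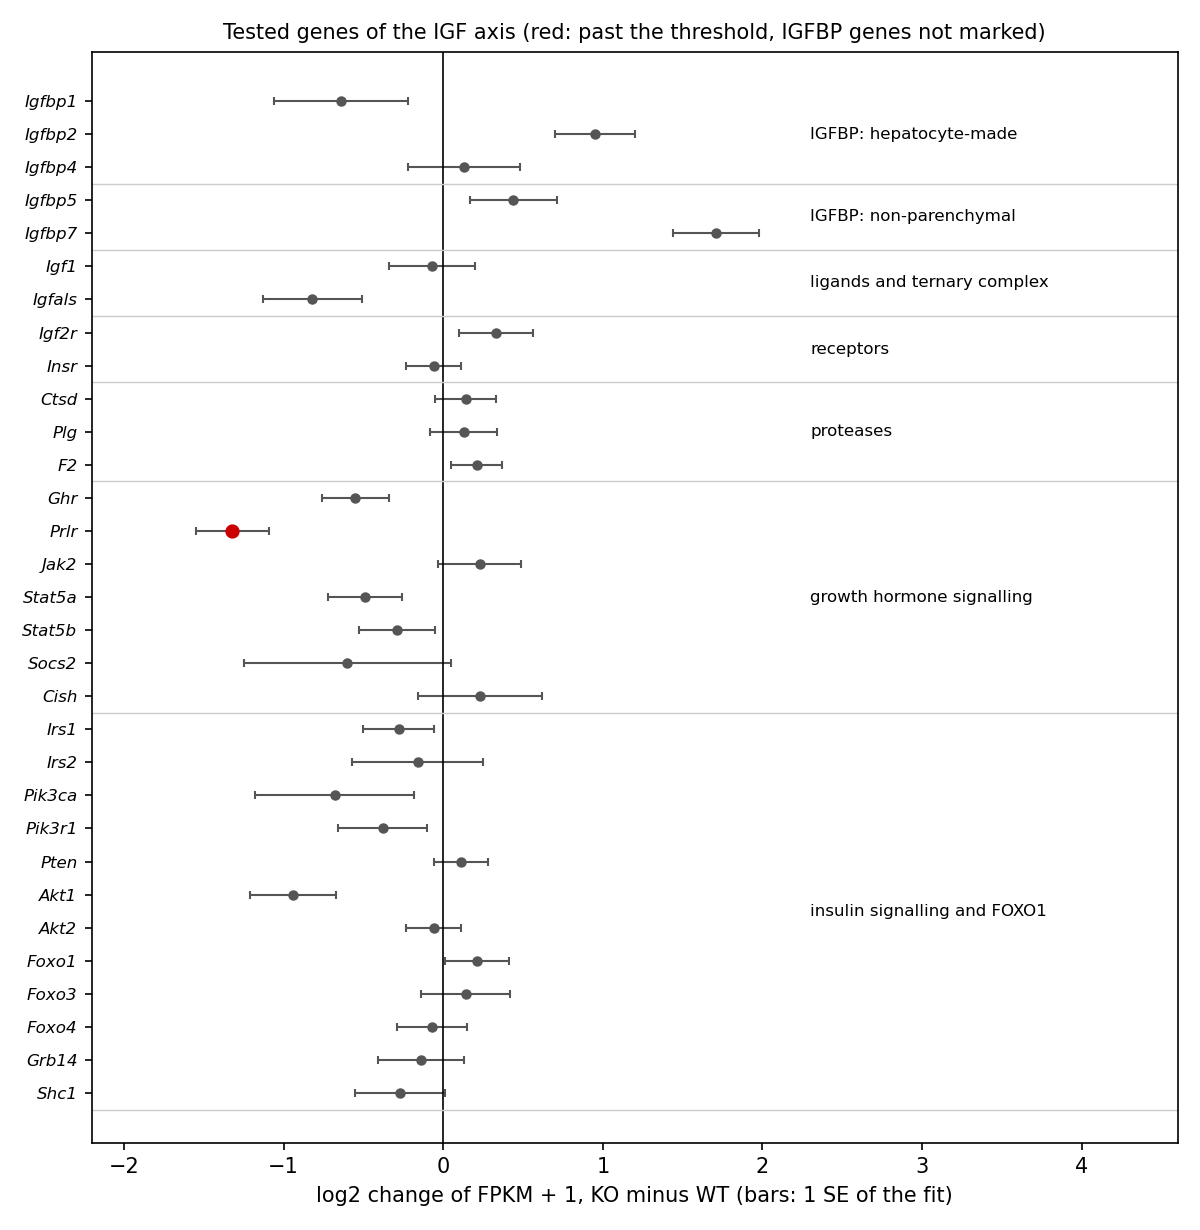
Points give the log2 change of FPKM + 1 (x axis, KO minus WT) with 1 SE of the fit for the tested IGFBP genes and the tested genes of the IGF axis, grouped by role (y axis), with genes outside the family that passed the threshold in red. Igfbp7 (1.71) lies farthest to the right and Prlr (-1.32) farthest to the left.

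The genes with the most similar profiles differed between members. Likeness was the mean absolute difference between centred log2(FPKM + 1) profiles over the 8 libraries, among 8894 tested protein-coding genes. For Igfbp7 the nearest were Aqp1, a water channel gene of endothelium (difference 0.21), Dnase1l3 (0.23) and Dcn, the decorin gene of stellate cells (0.27), against a median of 0.89 over all genes. Among the genes nearest to Igfbp2 were Atp6v0d2, a proton pump subunit gene (0.15), and Enc1 (0.16), with a median of 0.54. These ran at far lower levels, with Atp6v0d2 at 1.79 to 3.42 FPKM in WT and 2.53 to 7.57 FPKM in KO. Igfbp1 was nearest to Cobl (0.12), Myo10 (0.18) and Slc16a11 (0.23; median 0.63), each high in WT 4 and KO 1. Igfbp4 was nearest to Ppp2ca, a phosphatase subunit gene (0.10), Taf7 (0.14) and 1700001C19Rik (0.15; median 0.42), each highest in KO 2. Igfbp5 was nearest to Atp5sl (0.14), Klhl3 (0.17) and Sphk2 (0.18; median 0.46), each lowest in WT 4. Dnase1l3 and Dcn are also in the marker lists above.

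Of the 7 genes, 4 lie in 2 tail-to-tail pairs that join a hepatocyte-made member to a non-parenchymal one. Igfbp2 and Igfbp5 are 5457 bases apart on chromosome 1, and Igfbp1 and Igfbp3 are 3539 bases apart on chromosome 11, with 0 annotated genes between the partners of either pair. The partners differed widely in level, with Igfbp2 at 139 and Igfbp5 at 1.34 FPKM and Igfbp1 at 103 and Igfbp3 at 0.122 FPKM in WT. In the first pair the log2 changes were 0.95 for Igfbp2 and 0.44 for Igfbp5. In the second they were -0.64 for Igfbp1 and 0.74 ± 0.23 (SE, from the fit without a minimum) for Igfbp3. Both Igfbp1 and Igfbp3 had their highest KO value in KO 1, whereas WT 4 was the highest WT library for Igfbp1 and not for Igfbp3.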

How the data were processed

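Liver RNA was measured in 4 WT and 4 KO libraries. The values are FPKM as deposited, in a single table that pairs Ensembl IDs with symbols. Per the submitters' processing notes TopHat, edgeR and the build mm10 were involved. Which program computed FPKM, on what annotation and with or without strand, the sources used here do not say. A few abundant transcripts lower the FPKM of all other genes, and sums of FPKM ran from 455456 to 621928 per library.

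Columns were matched to samples by title. Values were set on the scale log2(FPKM + 1), where changes of low genes come out too small, for 11266 genes with a mean of at least 1 FPKM, in a fit with limma 3.58.1 in R 4.3.3 (genotype, intensity trend, two-sided, Benjamini-Hochberg, threshold 0.05). The script was tested on simulated data. Changes of Igfbp3 and Igfbp6 came from the fit without a minimum. Count tests were not run. Depth was the number of reads at which low values of 12059 single-transcript genes of at least 400 nt best fell on whole reads: 54.9 to 59.8% of values lay within 0.1 of a whole number, against 20% by chance, so it is an estimate that covers counting only. Of the gene IDs 99.4% matched GENCODE M21 (GRCm38, the build mm10). All 7 members matched the RefSeq table of start regions (GRCm38.p6). Plots used Python 3.11.15 with matplotlib 3.10.9.

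The members and lists were chosen with earlier results of these data known. Named were all 7 members, Arid1a, the main ligands and receptors, every called gene of a pathway list or else the one with the smallest p, the leading or undetected markers, and the 3 protein-coding genes most like each tested member. Some results that this rule names are not reported here. Trib3, Pck1, Cyp4a10, Fasn, Dbp, Foxo1, Stat5b, Socs2 and genes at trace levels lie outside this rule and were picked after their values were seen. Alternatives were other pseudocounts (0.1 and 5 FPKM), no minimum or 5 FPKM, 3 other scalings, no trend, array weights, a block by replicate number, and fits without single libraries or without WT 4 and KO 2.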

Additional observations from a re-analysis of the deposited data

Results flagged for a closer look

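Of 36 groups of 4 libraries examined for a library far from the other 3, 9 had one, where chance flags about 1 in 20 groups. In WT, WT 4 stood apart as the highest library in Igfbp1 (195 FPKM), Igfbp2 (182 FPKM), Igfbp4 (323 FPKM) and the summed family (704 FPKM), so these 4 flags share a library. KO 1 was apart in Igfbp1 (123 FPKM). Outside the family, WT 3 was apart in Igf1 (393 FPKM), KO 2 in Igf2r (4.66 FPKM) and KO 3, as the lowest, in Prlr (13.5 FPKM). KO 3 was also apart in the ratio of Igfbp7 to the summed stellate cell markers (0.363).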

How the results depend on the processing

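Under all 19 alternatives the log2 change kept its sign for Igfbp1 (-0.99 to -0.12), Igfbp2 (0.73 to 1.08) and Igfbp7 (1.02 to 2.06, the lowest with a pseudocount of 5 FPKM), as did Igfbp5 (0.13 to 0.80) in the 18 that tested it, while Igfbp4 ran from -0.23 to 0.40. Igfbp3 and Igfbp6 had only the fit without a minimum. The number of members called was 1 in the fit reported, 0 with no filter and with the replicate block, and 0 to 1 without single libraries. The number of IGF axis genes called was 1 in the fit reported, 0 with no filter, with the replicate block and without WT 4 and KO 2 together, and 0 to 1 without single libraries. Of all genes 46 were higher and 40 lower. With a pseudocount of 5 FPKM 27 were higher, with no filter 26 were lower, with a minimum of 5 FPKM 14 were higher and 13 lower, and without WT 4 and KO 2 together 75 were higher. The replicate block left 16 higher and 8 lower. The same-numbered libraries correlated at 0.096, -0.067, 0.015 and 0.25 in their deviations, so the numbers were not taken to pair them. Without single libraries 20 to 92 were higher (92 without KO 2, and 20 to 23 without WT 1, WT 2, WT 3, KO 3 or KO 4) and 14 to 44 lower (14 to 23 without any of those 5 or KO 1). The hepatocyte-made share differed by -1.41 percentage points, and by 5.63 with Igfbp4 counted as non-parenchymal. For these counts the cause was not tested. Depth limits Igfbp6 and the WT values of Igfbp3.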
